A study of Mus musculus with 32 samples.

Results

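The inflammatory cytokine ligands described here are 7 genes, Il1a, Il1b, Il18, Il33, Tnf, Tgfb1 and Csf1, taken by symbol from a deposited table of read counts for 5582 genes. All 7 were in the table. The brains came from C57BL/6 mice whose Apoe gene was replaced on both alleles by human APOE4 or human APOE3. Every animal had a craniotomy of 4.5 mm over the left parietal cortex, and TBI animals then received 1 controlled cortical impact with a metal tip of 3 mm driven 1 mm into the cortex, whereas sham animals were anaesthetised and opened but not hit. On day 14 the cortex and hippocampus around the lesion were taken and frozen together. The groups held 8 APOE4 TBI, 7 APOE4 sham, 8 APOE3 TBI and 7 APOE3 sham animals. Another 2 of the 32 libraries had labels that contradict each other and entered no comparison. The age of the mice is not spelled out in the labels, and no group was without surgery or carried the mouse Apoe gene. Neuron, astrocyte and microglia markers were present in every library.

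These ligands are secreted messengers of tissue damage. Il1a and Il33 encode alarmins, proteins kept inside cells and set free when a cell is damaged, whereas Il1b and Il18 encode precursors that the protease caspase-1 cleaves inside inflammasomes, so that an mRNA level does not report the active protein. Tnf encodes a membrane-bound trimer that the protease ADAM17 sheds, and in brain microglia and infiltrating macrophages are its main known sources. Tgfb1 encodes TGF-beta 1, which is stored in a latent complex and activated by integrins and matrix proteins, and which microglia need to keep their resting identity. Csf1 encodes the growth factor that keeps microglia and macrophages alive through the receptor CSF1R. In the brain, Il33 mRNA is known mainly from astrocytes and oligodendrocytes.

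Libraries held between 2262242 and 8606717 counts in the listed genes, with shallow libraries (up to 3595246) and deep ones (from 4648345) in all 4 groups. Every listed gene had an injury p of at most 0.0502 in the authors' deposited table, so the genes were selected on the TBI against sham contrast, and injury tests in these animals describe the ligands and are not independent of how the table was made. Of the 5371 genes kept after a filter on low counts, 94.1% passed the injury test over both genotypes, 48.2% upward. Genotype, the interaction of genotype and injury, and the relations among TBI animals were not used to choose the genes of the deposited table. The ligands and gene lists, however, were chosen with earlier results of these data known. Their genotype and correlation results are therefore not assured to be independent of that choice. The bearing of the selection on injury on relations among TBI animals was not tested.

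The 250 bases before the RefSeq start (GRCm38.p6) are shown for 4 ligands, to see how their promoters differ in sequence. Any relation of these sequences to the level or injury response of the ligands was not tested. Capitals mark matches, on either strand, to the TATA box (TATAAA), PU.1 (AGGAAG), C/EBP (TTNNGNAA) and NF-kB, and no marked match overlaps another in the 4 sequences.
Il1b: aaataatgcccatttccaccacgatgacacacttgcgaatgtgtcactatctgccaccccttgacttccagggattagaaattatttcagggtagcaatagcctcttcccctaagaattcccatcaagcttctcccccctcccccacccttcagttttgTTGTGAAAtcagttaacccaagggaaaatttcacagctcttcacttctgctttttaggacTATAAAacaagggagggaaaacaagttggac
Tnf: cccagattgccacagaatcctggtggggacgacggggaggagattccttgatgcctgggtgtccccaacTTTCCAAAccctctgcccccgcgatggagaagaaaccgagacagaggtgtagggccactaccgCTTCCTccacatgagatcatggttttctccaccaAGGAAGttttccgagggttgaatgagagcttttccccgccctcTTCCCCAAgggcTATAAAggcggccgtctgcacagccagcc
Tgfb1: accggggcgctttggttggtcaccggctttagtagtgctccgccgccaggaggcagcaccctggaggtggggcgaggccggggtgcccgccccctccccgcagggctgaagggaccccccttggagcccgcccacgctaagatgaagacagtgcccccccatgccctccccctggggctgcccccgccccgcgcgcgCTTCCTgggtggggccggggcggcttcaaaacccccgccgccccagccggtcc
Csf1: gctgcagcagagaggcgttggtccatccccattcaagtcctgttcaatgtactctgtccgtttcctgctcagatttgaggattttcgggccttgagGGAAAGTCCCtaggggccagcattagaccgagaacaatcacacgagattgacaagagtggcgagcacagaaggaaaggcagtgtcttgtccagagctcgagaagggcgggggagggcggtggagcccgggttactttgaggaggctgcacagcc
The Il1b window is the minus strand of chr2:129371140-129371389, the Tnf window the minus strand of chr17:35202008-35202257, the Tgfb1 window the plus strand of chr7:25686752-25687001 and the Csf1 window the minus strand of chr3:107760470-107760719.

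Il1b and Tnf, the most sparsely counted ligands, both carried a TATA box close to the start, from base -31 to -26 in Il1b and from -29 to -24 in Tnf. Il1a, a neighbour of Il1b, had one from -32 to -27. Between bases -40 and -20 that motif stood in 2.36% of 32851 RefSeq promoters, and anywhere in the window in 12.4%. The Tgfb1 and Csf1 windows had no match to it. Il33 has 2 listed starts, of which the downstream one had a TATA box from -29 to -24 and the upstream one a match from -203 to -198. In the Il18 window the match lay from -175 to -170. Csf1 alone of the 7 had an NF-kB match, from -154 to -145 (3.9% of all promoters), and Il1a alone an AP-1 match (TGANTCA, 6.75%) from -12 to -6. Matches to PU.1 (29.5%) and C/EBP (36.8%) are common, and none of the 7 matched the interferon response motif ISRE (2.98%). The Tgfb1 window was 75.2% G or C, the Csf1 window 56.4%, the Tnf window 57.6% and the Il1b window 44.4%, against a median of 52.4% over all promoters. A match is a string of letters and not a measured binding site.

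Il1a (NCBI gene 16175, chromosome 2 from 129299609 to 129310186, minus strand) and Il1b (NCBI gene 16176, chromosome 2 from 129364569 to 129371164, minus strand) lie 54382 bases apart in RefSeq. Il18 (NCBI gene 16173) lies on chromosome 9 from 50554700 to 50581841, plus strand, and Il33 (NCBI gene 77125) on chromosome 19 from 29925113 to 29960718, plus strand. Tnf (NCBI gene 21926) lies on chromosome 17 from 35199367 to 35202007, minus strand, between its relatives Ltb and Lta, which were not analysed here. Tgfb1 (NCBI gene 21803) lies on chromosome 7 from 25687002 to 25705077, plus strand, and Csf1 (NCBI gene 12977) on chromosome 3 from 107741048 to 107760469, minus strand. In GENCODE, opposite-strand transcripts share 222 exon bases with Il1a (Gm14023) and 25 with Il1b (Il1bos). The strand setting of the counting is not given in the sources used here, so counts of these overlapping genes cannot be assigned to 1 strand.

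Per kilobase of exon, Il33 had the highest level of the 7 ligands. Its level was 48.1 ± 6.74 CPM per kb in TBI and 36.4 ± 4.82 in sham brains (SD, n = 16 and 14), where CPM is a gene's count scaled to a common total over the listed genes. Il18 followed at 31.4 ± 3.31 in TBI and 27.3 ± 3.95 in sham, then Csf1 at 16.8 ± 4.00 and 9.77 ± 0.587, and Tgfb1 at 3.66 ± 1.10 and 1.83 ± 0.277. Il1a stood at 1.92 ± 0.769 in TBI and 0.743 ± 0.478 in sham, Il1b at 1.17 ± 1.10 and 0.376 ± 0.209, and Tnf at 0.457 ± 0.388 and 0.0434 ± 0.0752. The order was the same in TBI and sham brains. Ranges of neighbours in this order overlapped, apart from Il18 with Csf1 and Csf1 with Tgfb1, whose ranges were separate in both injury states.

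**Figure D1:**
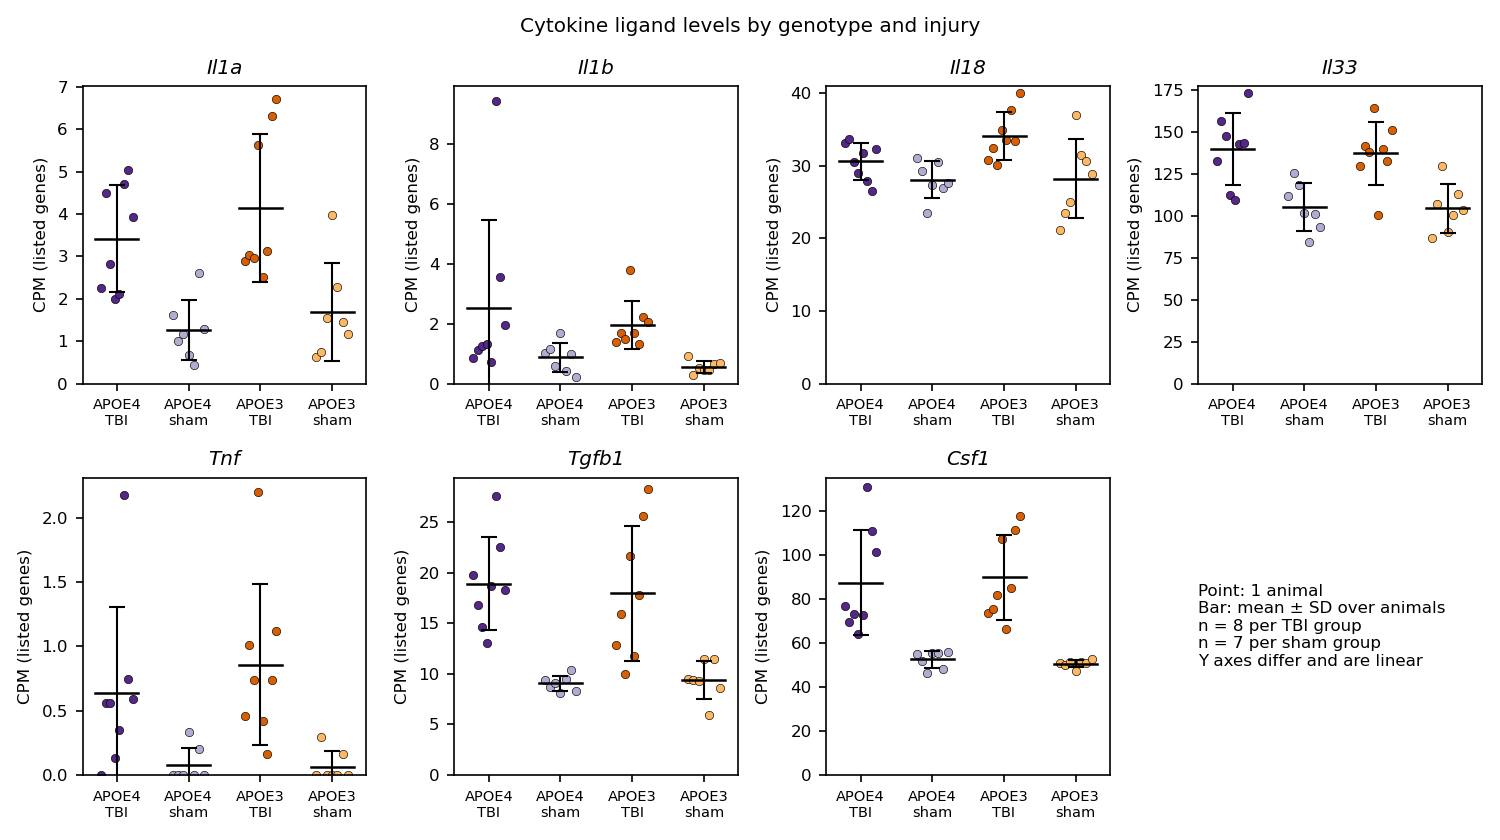
CPM over the listed genes for each ligand, with 1 point per animal and the mean ± SD of each group as bars, for APOE4 TBI, APOE4 sham, APOE3 TBI and APOE3 sham. Csf1 TBI animals sit between 64.2 and 131 CPM, all above the highest sham at 55.7, while Il18 groups overlap, and 10 of 14 shams lie at 0 for Tnf.

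Injury was the contrast on which the listed genes had been selected, so the calls below describe the ligands and are not independent of that selection. With the unfiltered fit, which holds all 7, every ligand was higher in TBI than in sham over both genotypes (edgeR adjusted p under the 0.05 threshold), where 48.3% of all 5582 listed genes were called higher and 93.5% were called at all. The filtered fit kept 5 of the 7 and called 5 higher, and the values of Il1b and Tnf, dropped for low counts, are from the unfiltered fit. The ligands ranged from the 1.16-fold difference of Il18 to the 7.64-fold fitted difference of Tnf. In bulk tissue, fewer cells of a type and less RNA per cell cannot be told apart.

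Il1a, the alarmin that starts IL-1 receptor signalling from dying cells, was low in all animals. Its level ran from 1.997 to 6.70 CPM in TBI brains with a median of 3.09, against 0.430 to 3.96 CPM with a median of 1.23 in sham brains. The groups overlapped, with 6 of 16 TBI animals above the highest sham, an APOE3 animal. Il1a rose 2.65-fold (log2 difference 1.41 ± 0.22 SE, edgeR adjusted p = 1.27e-06).

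Il1b, the inflammasome-processed ligand of the same receptor, had fewer counts still, 164 over the 16 TBI animals and 48 over the 14 shams. It ran from 0.704 to 9.43 CPM with a median of 1.58 in TBI, against 0.213 to 1.69 CPM with a median of 0.618 in sham. In 7 of 16 TBI animals it was above every sham. The pooled levels had a ratio of 2.96, with an exact 95% counting interval from 2.14 to 4.18 that covers counting error only, and the fitted log2 difference was 1.53 ± 0.33 (edgeR adjusted p = 0.000153). Among APOE3 animals all 8 TBI values, from 1.32 to 3.79 CPM, lay above the highest sham at 0.922 CPM, a separation that 11.8% of tested genes showed in that genotype. Among APOE4 animals 3 of 8 did, and the highest TBI animal reached 9.43 CPM against 3.55 for the next.

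Il18, the other caspase-1 substrate, moved least. Levels ran from 26.5 to 40.03 CPM with a median of 32.3 in TBI, against 21.2 to 37.0 with a median of 28.3 in sham. The groups overlapped over most of their range, with 2 of 16 TBI animals above the highest sham. Il18 rose 1.16-fold (log2 difference 0.21 ± 0.06, edgeR adjusted p = 0.00339), and in the shallow libraries alone this was 0.19 with an adjusted p = 0.116. Over all tested genes the median log2 difference was 0.10.

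Il33, an alarmin stored in cell nuclei, rose 1.32-fold (log2 difference 0.40 ± 0.07, edgeR adjusted p = 7.66e-06). Its level ran from 100.3 to 173 CPM with a median of 141 in TBI brains, against 84.2 to 130 with a median of 103 in sham brains. In 12 of 16 TBI animals it exceeded the highest sham, and the lowest 4 shams lay below every TBI animal.

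Tnf, the trimer that activates both TNF receptors, was near the limit of detection. It had 58 counts over the TBI animals, at most 18 in 1 library, against 5 counts over the shams, where 10 of 14 libraries had 0. Levels ran from 0 to 2.20 CPM with a median of 0.576 in TBI, against 0 to 0.337 with a median of 0 in sham. In 13 of 16 TBI animals Tnf exceeded the highest sham, and 1 TBI animal had no count. The pooled ratio was 10.1 with an exact 95% counting interval from 4.07 to 32.1, and the fitted log2 difference of 2.93 ± 0.56 (edgeR adjusted p = 2.92e-05) depends on the prior count of the fit.

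Tgfb1 and Csf1 were the ligands whose TBI and sham values came apart most cleanly. Tgfb1, the latent regulator of microglial identity and scar matrix, ran from 10.01 to 28.3 CPM with a median of 18.0 in TBI, against 5.93 to 11.5 with a median of 9.32 in sham. It rose 1.96-fold (log2 difference 0.97 ± 0.12, edgeR adjusted p = 2.75e-08), with 15 of 16 TBI animals above every sham. In APOE4 animals its values did not overlap, at 13.04 CPM or more in TBI and at most 10.4 CPM in sham, as in 8.97% of tested genes in that genotype. Csf1, the microglial growth factor, ran from 64.2 to 131 CPM with a median of 79.1 in TBI, against 46.1 to 55.7 with a median of 51.4 in sham. All 16 TBI animals lay above every sham, which held for 5.59% of tested genes (300 of 5371), and the rise was 1.70-fold (0.77 ± 0.08, edgeR adjusted p = 3.68e-09). Its coefficient of variation was 23.9% among TBI animals and 6.01% among shams.

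Injury coefficients of the authors ran close to these for most ligands. The authors' deposited table gives log2 coefficients of 1.38 for Il1a, 0.20 for Il18, 0.43 for Il33, 0.92 for Tgfb1 and 0.74 for Csf1. For the sparse genes the authors' deposited table gives 1.29 for Il1b and 2.06 for Tnf, below the fitted values here.

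Markers of brain and blood cells also differed between TBI and sham, some upward and some downward. In the injury test over both genotypes 94.1% of all tested genes were called and 48.2% were called higher, while 2464 of 5371 were called lower. The summed level of 18 of 18 microglia markers ran from 1955 to 4144 CPM in TBI and from 1057 to 1426 CPM in sham, and all 18 passed upward (median log2 difference 1.10), led by C1qa (2.03), Trem2 (1.98), Tyrobp (1.86) and C1qc (1.81). Of 16 markers of infiltrating monocytes and border macrophages 12 were in the table, with sums from 284 to 887 CPM in TBI and 78.2 to 120 CPM in sham. Of that sum Vim, shared with the astrocyte list, averaged 343 CPM in TBI and 62.2 CPM in sham. The 9 tested passed upward (median 1.93), led by Ms4a7 (3.20, mean 5.67 CPM in TBI) and Ccr2 (2.43, mean 4.02 CPM in TBI). Clec4e was at 0 in the APOE4 shams. Of 13 neutrophil markers 3 were in the table, at 25.2 to 90.7 CPM in TBI and 7.42 to 15.96 CPM in sham. The 2 tested, S100a8 (3.09) and Csf3r (1.73), rose. Csf3r made up most of that sum, with means of 38.7 CPM in TBI and 11.7 CPM in sham, against 2.82 and 0.303 for S100a8. Markers of T, NK and B cells, 5 of 19 in the table, summed to 9.86 to 70.8 CPM in TBI and 6.76 to 13.2 CPM in sham; of 3 tested, Igkc (4.05) and Lck (0.59) rose and Trbc2 (-1.07) fell. The sums of the 13 astrocyte markers ran from 18002 to 26286 CPM in TBI and from 14720 to 17326 CPM in sham, with 13 of 13 higher (median 0.52), led by Vim (2.42), which the macrophage list shares, and Gfap (2.32). Neuron markers, 15 of 17 in the table, summed to 16891 to 23526 CPM in TBI and 23459 to 27225 CPM in sham, and 14 passed downward (median -0.36), Homer1 (-0.63) and Nefm (-0.61) the most. Endothelial and mural markers (6 of 19 in the table) summed to 408 to 708 CPM in TBI and 387 to 493 CPM in sham, with 5 higher, as Cldn5 (0.32), and Cd34 (-0.49) lower. Oligodendrocyte and precursor markers (5 of 18 in the table) summed to 608 to 992 CPM in TBI and 607 to 987 CPM in sham, with 3 higher, as Gsn (0.52), and 2 lower, as Mal (-0.30). The part of these cell markers in the ligand differences was not tested.

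The next comparison asked whether human APOE4 and APOE3 brains answered injury with different ligand levels. In APOE4 animals 4 of 5 tested ligands were higher after TBI, where 33.9% of all tested genes were called higher and 64.8% were called at all. In APOE3 animals 5 of 5 were higher, where 38% were called higher and 72.3% were called at all. The ligand that passed in APOE3 and not in APOE4 was Il18.

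**Figure D2:**
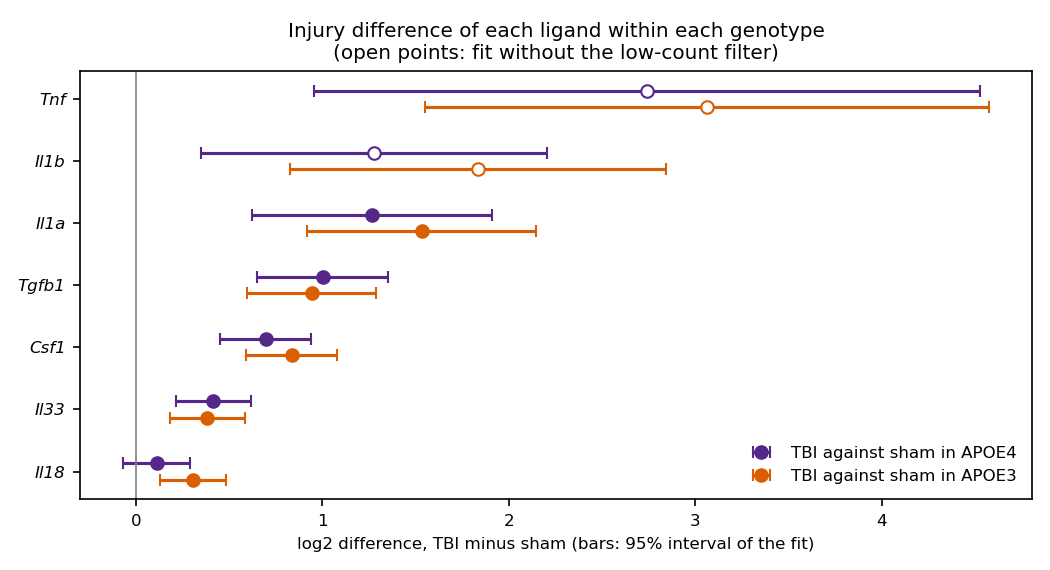
Log2 difference of TBI minus sham for each ligand in APOE4 (upper point of each pair) and APOE3 (lower point), with 95% intervals of the edgeR fit as bars. The intervals of the genotypes overlap for every ligand, and that of Il18 in APOE4 crosses 0.

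Csf1 in APOE4 ran from 64.2 to 131 CPM in TBI, against 46.1 to 55.7 CPM in sham (log2 difference 0.70 ± 0.12, edgeR adjusted p = 2.92e-05). In APOE3 it ran from 66.3 to 118 CPM in TBI, against 47.1 to 52.9 CPM in sham (0.84 ± 0.12, edgeR adjusted p = 1.53e-06). The Csf1 medians were 74.9 CPM in APOE4 TBI and 55.1 CPM in APOE4 sham, and 83.2 CPM in APOE3 TBI and 50.9 CPM in APOE3 sham. Tgfb1 had medians of 18.5 CPM in APOE4 TBI and 9.11 CPM in APOE4 sham, and of 16.8 CPM in APOE3 TBI and 9.38 CPM in APOE3 sham. It rose by a log2 difference of 1.00 ± 0.17 in APOE4 (edgeR adjusted p = 2.74e-05) and 0.94 ± 0.17 in APOE3 (3.49e-05). For both genes the gap between TBI and sham was similar in size in the 2 genotypes, and the difference of the gaps had a 95% interval from -0.48 to 0.21 for Csf1 and from -0.43 to 0.55 for Tgfb1.

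Il1a had medians of 3.37 CPM in APOE4 TBI and 1.18 CPM in APOE4 sham, and of 3.09 CPM in APOE3 TBI and 1.46 CPM in APOE3 sham. In APOE4 5 of 8 TBI animals lay above the highest sham of that genotype, and in APOE3 3 of 8. Il1a rose by 1.27 ± 0.32 on the log2 scale in APOE4 (edgeR adjusted p = 0.00148) and by 1.53 ± 0.30 in APOE3 (9.80e-05). Il33, with medians of 143 CPM in APOE4 TBI and 102 CPM in APOE4 sham, and of 139 CPM in APOE3 TBI and 104 CPM in APOE3 sham, rose by 0.42 ± 0.10 in APOE4 (edgeR adjusted p = 0.000982) and by 0.38 ± 0.10 in APOE3 (0.00159). Il18 stood at 26.5 to 33.6 CPM in APOE4 TBI brains, against 23.5 to 31.1 CPM in APOE4 sham brains, a log2 difference of 0.11 ± 0.09 (edgeR adjusted p = 0.232). In APOE3 it stood at 30.03 to 40.03 CPM in TBI, against 21.2 to 37.0 CPM in sham, a rise of 0.31 ± 0.09 (edgeR adjusted p = 0.00346). The Il18 difference between the genotypes' injury effects was -0.20 ± 0.12, with a 95% interval from -0.45 to 0.06 and an unadjusted p = 0.122 in edgeR (adjusted p = 0.999), so a difference between the genotypes was not shown. In the shallow libraries alone the APOE3 calls were lost for Il1a (0.86, edgeR adjusted p = 0.204) and Il18 (0.16, 0.407).

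The sparse ligands gave wide estimates within each genotype. Il1b had medians of 1.30 CPM in APOE4 TBI and 0.998 CPM in APOE4 sham, and of 1.68 CPM in APOE3 TBI and 0.515 CPM in APOE3 sham. Tnf had medians of 0.562 CPM in APOE4 TBI and 0.742 CPM in APOE3 TBI, and of 0 in the shams of either genotype. Il1b rose by a fitted log2 difference of 1.28 ± 0.46 in APOE4 (edgeR adjusted p = 0.0183) and 1.84 ± 0.50 in APOE3 (0.00232), and its pooled ratios were 2.44 (95% 1.58 to 3.87) and 3.75 (2.26 to 6.55), from 83 against 29 counts and from 81 against 19 counts. Without the highest APOE4 TBI animal the APOE4 value was 0.83 (edgeR adjusted p = 0.0552), and without 1 APOE4 sham (replicate 7) it was 1.05 (0.0528). In the shallow libraries alone no call of Il1b held, with edgeR adjusted p-values of 0.0614 over both genotypes, 0.215 in APOE4 and 0.246 in APOE3. Tnf had 21 counts in APOE4 TBI against 2 in APOE4 sham, a pooled ratio of 8.96 (95% 2.19 to 78.8), and 37 in APOE3 TBI against 3 in APOE3 sham, a ratio of 10.9 (3.44 to 55.0). Both ratios had lower bounds above 1, and their intervals overlapped. The fitted Tnf differences within genotypes, 2.74 ± 0.88 in APOE4 (edgeR adjusted p = 0.00970) and 3.06 ± 0.74 in APOE3 (0.000893), lost their calls in the shallow libraries alone (0.193 in APOE4 and 0.0720 in APOE3). In the deep libraries alone the APOE4 calls of Il1b (0.0983) and Tnf (0.0909) were lost as well.

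No ligand passed the test of the interaction itself. In that comparison 0 of 5371 genes were called by edgeR, DESeq2 or limma-voom (0%), and 99, 94 and 121 genes had an unadjusted p under 0.05, among them 0 of the 5 tested ligands in edgeR, where they were 1.84% of all genes. Log2 differences of APOE4's injury effect minus APOE3's were -0.27 ± 0.45 for Il1a (95% interval -1.19 to 0.65), 0.032 ± 0.14 for Il33 (-0.25 to 0.32) and -0.56 ± 0.69 for Il1b (-1.97 to 0.85). The Tnf value was -0.32 ± 2.53 (edgeR adjusted p = 1), with a 95% interval from -5.48 to 4.84 that is too wide to give a direction.

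Averaged over injury states, APOE4 and APOE3 brains had ligand levels that were not told apart. Of the 5 tested ligands 0 passed, against 2.01% of all tested genes (108). Log2 differences of APOE4 minus APOE3 were -0.07 ± 0.06 for Il18 (95% interval -0.20 to 0.06), -0.25 ± 0.21 for Il1a (-0.67 to 0.17), 0.0088 ± 0.07 for Il33 (-0.13 to 0.15), 0.0096 ± 0.12 for Tgfb1 (-0.23 to 0.25) and -0.0025 ± 0.08 for Csf1 (-0.17 to 0.17). The signs of the Il33, Tgfb1 and Csf1 values turned under some other settings. In the unfiltered fit the values were 0.30 ± 0.31 for Il1b (-0.34 to 0.94) and -0.64 ± 0.46 for Tnf (-1.57 to 0.30). Without D1999, an APOE3 TBI animal, the difference was -0.12 for Tnf, -0.12 for Il1a and 0.58 for Il1b, and without E2118, an APOE4 TBI animal, it was -0.97 for Tnf and -0.018 for Il1b. Within TBI 0 of 5 passed (0.447% of all tested genes) and within sham 0 of 5 (0.168%). Within TBI Il18 had 26.5 to 33.6 CPM in APOE4 and 30.03 to 40.03 CPM in APOE3 (log2 difference -0.16 ± 0.08, edgeR adjusted p = 0.492). Averaged over injury states, the intervals of Il18, Il33, Tgfb1 and Csf1 stayed within 0.25 on the log2 scale in either direction, and those of Il1a, Il1b and Tnf did not. The intervals were wider within TBI, from -0.33 to 0.0089 for Il18 and from -0.28 to 0.35 for Tgfb1, and within sham, from -0.40 to 0.35 for Tgfb1 and from -0.18 to 0.33 for Csf1.

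Titles carry a letter M or F that the labels do not explain, and it was a covariate of every fit except an alternative run without it. Over both genotypes and injury states, animals with the letter F had values above those with M for Csf1 (0.20 ± 0.08, edgeR adjusted p = 0.0850), Il1a (0.48 ± 0.21, 0.0989) and Tgfb1 (0.29 ± 0.12, 0.0791). These 3 of 5 ligands had an unadjusted p under 0.05, as did 32.6% of all tested genes, and 0 of 5 passed after adjustment, against 16.7% of all tested genes.

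Ligands were then compared across the 16 TBI animals, each value in log2 CPM and taken against the mean of its own genotype group, to see which were high in the same brains. All 21 pairs were tested with 100000 permutations each (2-sided), and p-values were adjusted over the 21 pairs. Of these 9 passed by Pearson's r and 10 by Spearman's rho, and 18 had a positive r. Il1a was in 5 of the 9 and Csf1 in 4. The share of pairs that pass among all listed genes was not computed, so these counts are not shown to be particular to the ligands.

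**Figure D3:**
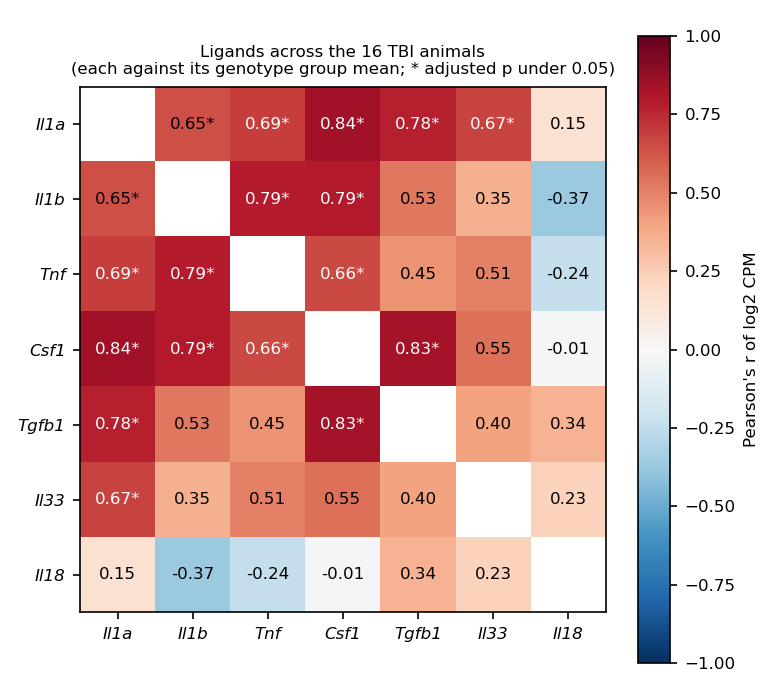
Pearson's r between each pair of ligands across the 16 TBI animals, in log2 CPM taken against the genotype group mean, with an asterisk where the adjusted permutation p is under 0.05. Il1a and Csf1 have the highest value at 0.84, and the column of Il18 holds values from -0.37 to 0.34 without an asterisk.

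Il1a and Csf1 had a Pearson's r of 0.84 (permutation p = 0.000160, adjusted p = 0.00110) and a Spearman's rho of 0.82 (p = 0.000160, adjusted p = 0.00210), and r was 0.79 without the 2 animals farthest from the median. Tgfb1 and Csf1 had r = 0.83 (permutation p = 8.0e-05, adjusted p = 0.000840) and rho = 0.81 (p = 0.000200, adjusted p = 0.00210), and r was 0.88 without the 2 farthest animals. Brains high in Csf1 mRNA were thus also high in Il1a and Tgfb1 mRNA. The values and permutations took no account of the title letter. Within letter M and within letter F, r was 0.63 and 0.96 for Il1a with Csf1, and 0.70 and 0.90 for Tgfb1 with Csf1.

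Il1b and Csf1 had r = 0.79 (permutation p = 7.0e-05, adjusted p = 0.000840) and rho = 0.66 (p = 0.00632, adjusted p = 0.0166), and r was 0.69 without the 2 farthest animals, E2118 (APOE4) and D1999 (APOE3). Il1b and Tnf had r = 0.79 (permutation p = 0.000210, adjusted p = 0.00110) and rho = 0.74 (p = 0.00151, adjusted p = 0.00634), and r fell to 0.57 without the same 2 animals. Il1a and Tgfb1 had r = 0.78 (permutation p = 0.000530, adjusted p = 0.00223) and rho = 0.75 (p = 0.00115, adjusted p = 0.00604), with r = 0.67 without the 2 farthest animals. The remaining pairs that passed were Il1a with Tnf (0.69), Il1b (0.65) and Il33 (0.67), and Tnf with Csf1 (0.66), with adjusted permutation p-values from 0.00784 to 0.0110 for Pearson's r. Il33 with Tnf passed by rho (0.71, permutation p = 0.00265, adjusted p = 0.00927) and not by r (0.51, adjusted p = 0.0787).

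Il18 passed with no other ligand, with r from -0.37 (Il1b) to 0.34 (Tgfb1). With each ligand but Il33 its r differed in sign between the genotypes, a difference that was not tested. In the 8 APOE4 animals they were -0.72 with Il1b, -0.56 with Csf1, -0.48 with Tnf, -0.36 with Tgfb1, -0.33 with Il1a and 0.16 with Il33, and in the 8 APOE3 animals 0.25 with Il1b, 0.57 with Csf1, 0.028 with Tnf, 0.74 with Tgfb1, 0.55 with Il1a and 0.31 with Il33. Within the 8 shallow TBI libraries the r of the 9 pairs ran from 0.60 to 0.84, and within the 8 deep ones from 0.71 to 0.97. Within letter M they ran from 0.47 to 0.90, and within letter F from 0.65 to 0.96. These 9 pairs were chosen for their r in the same animals, so the ranges are a description. Among the 8 APOE4 animals alone 2 of 21 pairs passed and among the 8 APOE3 animals alone 4, with r for Il1a and Csf1 of 0.73 in APOE4 and 0.98 in APOE3, and for Tgfb1 and Csf1 of 0.86 in APOE4 and 0.88 in APOE3.

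A few brains supplied the extremes. Animal E2118 was highest of the APOE4 TBI group in Il1b (9.43 CPM), Tnf (2.18), Tgfb1 (27.6) and Csf1 (131), and it had the highest summed markers of microglia (4144 CPM), monocytes and border macrophages (887) and neutrophils (90.7) of all 16 TBI animals, but ranked 15 of 16 in Il18. On average the monocyte and neutrophil sums were mostly Vim and Csf3r, with means of 343 and 38.7 CPM over the TBI animals. In the APOE3 TBI group D2439 was highest in Il1a (6.70 CPM), Il18 (40.03), Tgfb1 (28.3) and Csf1 (118), with a microglia sum of 3639 CPM that ranked 3. D2439 also had the highest astrocyte sum of the 16 TBI animals (26286 CPM, against 23368 for the next) and the highest endothelial and mural sum (708 CPM, against 623), and ranked 15 in neuron markers. In the same group D1999 was highest in Il1b (3.79 CPM), Il33 (165) and Tnf (2.20), with a microglia sum of 3231 CPM that ranked 5. The part of these cell markers in the relations among ligands was not tested.

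Genes whose profile over the 30 libraries lay closest to each ligand were found by the root mean square difference of log2 CPM. Each profile was taken against its own mean. The libraries held TBI and sham animals together, so a similar injury difference by itself brings profiles close. The table had been selected on that contrast. Closeness among TBI or among sham animals alone, and shared regulation, were not tested. Csf1 was nearest to the lysosomal genes Ctsa (0.12 log2 units) and Lgmn (0.13), against a spread of Csf1 itself of 0.44. Tgfb1 was nearest to Ltbr, the lymphotoxin beta receptor (0.23), and Gusb, a lysosomal glucuronidase (0.24), against 0.58. Il1a lay nearest to Ikzf1, a blood cell transcription factor (0.45), and Cd86, a costimulatory receptor (0.46), against 0.91, and Il1b to Psd4 (0.47) and Ctsz, a lysosomal protease (0.53), against 0.94. For Tnf, Ifi30, a thiol reductase of antigen processing (0.56), and Plscr2 (0.58) came closest, against 1.09. Il33 was nearest to the tetraspanin Cd81 (0.15) and the G protein subunit Gnai2 (0.16), against 0.28, and Il18 to the ribosomal protein gene Rps25 (0.13) and the kinase Mknk1 (0.15), against 0.20.

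Receptors and inhibitors of the ligands were followed next, from a list of 17 genes of which 9 were in the table and 8 tested. All 8 were higher in TBI over both genotypes (median log2 difference 0.89, against 0.10 over all tested genes), with edgeR adjusted p-values from 6.56e-14 to 0.0133. Of all tested genes 94.1% were called there and 48.2% were called higher. Csf1r, the receptor of CSF1 and itself one of the microglia markers above, stood at 442 ± 69.3 CPM in TBI and 236 ± 22.1 CPM in sham (SD, n = 16 and 14), and rose by 0.90 ± 0.06 with all 16 TBI animals above every sham. The TNF receptors Tnfrsf1a (1.24 ± 0.10), found on most cells, and Tnfrsf1b (1.36 ± 0.15), found mainly on immune cells, were also higher in 16 of 16 TBI animals than in any sham. Such a separation held for 5.59% of all tested genes. The TGF-beta receptors rose by 0.65 ± 0.08 (Tgfbr1) and 0.88 ± 0.08 (Tgfbr2), and the co-receptor Tgfbr3 by 0.25 ± 0.09. Il18bp, a secreted protein that binds and blocks IL-18, rose by 1.02 ± 0.17 with 11 of 16 TBI animals above every sham, and so by more than Il18 itself at 0.21. The IL-1 receptor gene Il1r1 rose by 0.25 ± 0.09. In APOE4 7 of 8 passed upward, as did 33.9% of all tested genes, and in APOE3 7 of 8, as did 38%. The receptor antagonist gene Il1rn was dropped for low counts, and receptors such as Il1rap, Il1rl1 and Il18r1 were not analysed here.

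**Figure D4:**
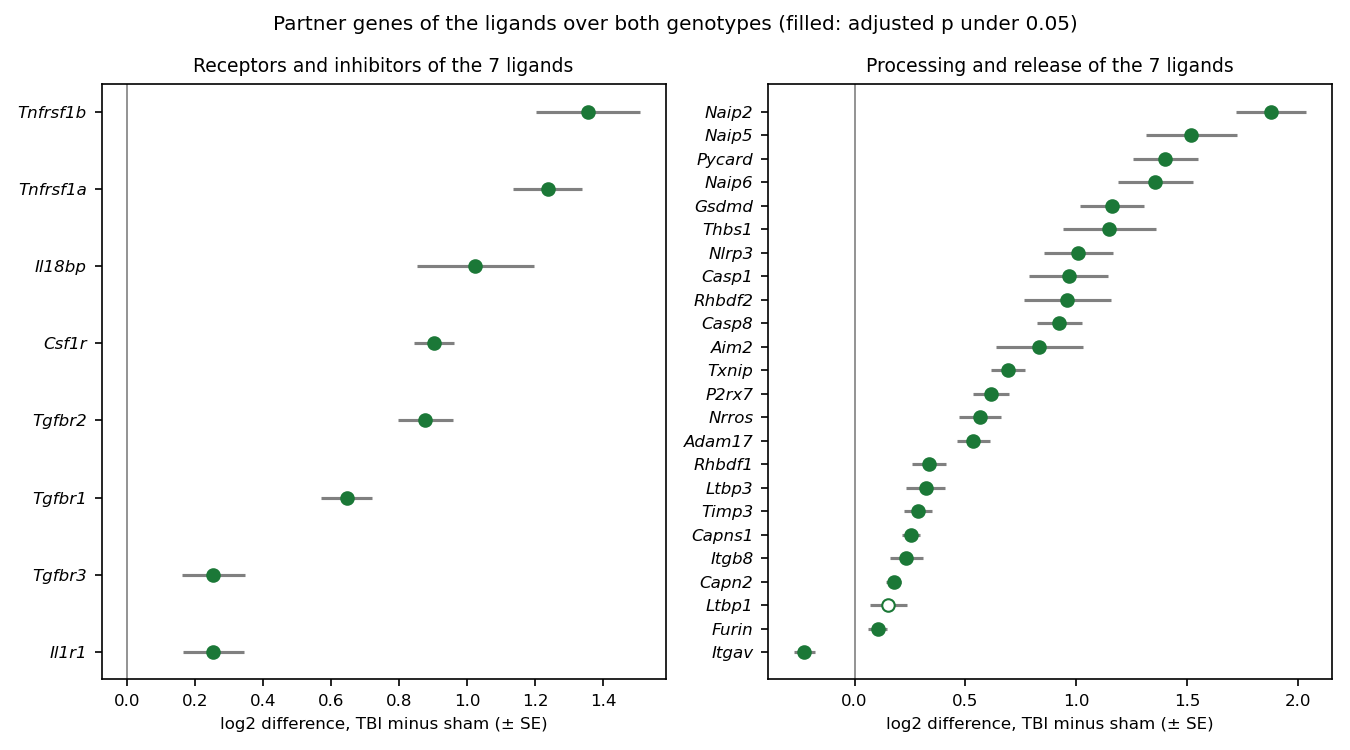
Log2 difference of TBI minus sham over both genotypes, with its standard error, for the 8 tested receptors and inhibitors and the 24 tested processing and release genes. All but Itgav lie above 0, and Ltbp1 (open circle) did not pass.

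Of 34 listed genes of ligand processing and release 24 were tested, and 22 were higher in TBI, 1 was lower and 1 did not pass (median 0.65). Of all tested genes 94.1% were called in that comparison and 48.2% were called higher. Among the inflammasome genes of that list that were tested, the following rose, the sensors Nlrp3 (1.01 ± 0.15) and Aim2 (0.83 ± 0.20), the adaptor Pycard (1.40 ± 0.15), the IL-1-processing protease Casp1 (0.97 ± 0.18), the death protease Casp8 (0.92 ± 0.10) and the pore-forming Gsdmd (1.16 ± 0.14), while Nlrp1b and Casp4 were dropped for low counts. Naip2 (1.88), Naip5 (1.52) and Naip6 (1.36) rose as well, but are near-identical copies whose reads may not be separable. Pycard and Gsdmd were higher in 16 of 16 TBI animals than in any sham, as were 5.59% of all tested genes. Nlrp3 was higher than in any sham in 14 TBI animals and Casp1 in 6. P2rx7, the ATP-gated channel that triggers IL-1 beta release, rose by 0.62 ± 0.08, and Txnip, a regulator of redox state, by 0.69 ± 0.08. Adam17, the TNF sheddase, rose by 0.54 ± 0.07, its partners Rhbdf1 by 0.34 ± 0.08 and Rhbdf2 by 0.96 ± 0.20, and its inhibitor Timp3 by 0.29 ± 0.06. Capn2 (0.18) and Capns1 (0.25), subunits of the calpain that can cleave the IL-1 alpha precursor, rose by small amounts. Among genes that store, process or activate TGF-beta 1, Thbs1 (1.15 ± 0.21), Nrros (0.57 ± 0.09), Ltbp3 (0.32 ± 0.09), Itgb8 (0.23 ± 0.07) and Furin (0.10 ± 0.04) rose. Itgav fell by 0.23 (edgeR adjusted p = 0.000117), and Ltbp1 stood at 0.15 ± 0.08 (edgeR adjusted p = 0.0756). Furin was at the median of all tested genes, 0.10, and Capn2 was near it. With counts scaled by their totals that median was 0.19, so the zero point of small differences depends on the scaling. In APOE4 21 of 24 passed upward and 1 downward, where 64.8% of all tested genes were called and 33.9% were higher, and in APOE3 20 of 24 passed upward and 1 downward, where 72.3% were called and 38% were higher.

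Downstream genes were counted in the same way and against the same shares of all tested genes. Of 22 tested signal adaptors and kinases (39 listed) 17 were higher, 4 lower and 1 did not pass (median 0.32), with the largest differences in Tyrobp (1.86 ± 0.14), also a microglia marker, Ikbke (1.32 ± 0.24), Irak4 (1.18 ± 0.16) and Pik3cg (1.06 ± 0.10). Of 22 tested targets of IL-1, TNF and NF-kB (32 listed) 20 were higher and 2 lower (median 1.38). Lcn2, a siderophore-binding protein, stood at 171 ± 165 CPM in TBI and 0.666 ± 0.554 CPM in sham, and the chemokines Ccl2 and Cxcl10 rose by 4.91 ± 0.49 and 4.73 ± 0.36. Mmp3, a matrix protease, had no count in any sham and 5.004 ± 6.93 CPM in TBI. Of 16 tested targets of TGF-beta (27 listed) 14 were higher and 2 lower (median 0.83), led by Timp1 (4.02 ± 0.43), the transcriptional repressor Tgif1 (1.78 ± 0.20), the collagen cross-linker Lox (1.42 ± 0.23) and the collagen Col3a1 (1.25 ± 0.22). Of 59 other cytokine ligands 9 were in the table and 8 were higher and 1 lower (median 0.79), with Spp1, or osteopontin, at 2.68 ± 0.29, Ebi3, a subunit of IL-27 and IL-35, at 1.29 ± 0.21, Il15 at 1.14 ± 0.24 and the growth factor progranulin (Grn) at 1.14 ± 0.10. In these lists 0 genes passed the interaction. Among all receptor, processing, signal, target and cytokine genes 0 passed for APOE4 against APOE3 over both injury states.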

How the data were processed

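RNA from cortex and hippocampus of 32 mice was sequenced, and the authors deposited 1 table of read counts per gene, with log2 coefficients and p-values of their injury test beside the counts, per the file headers. Reads were counted with Subread 1.5.0 on mm10 and tested with edgeR 3.14.0, per the submitters' processing notes, which give no order or role. The deposited p-values reach 0.0502, so the 5582 genes had been selected on injury. Symbols of 13 genes had become dates and were restored through their gene IDs, and 5557 IDs matched RefSeq.

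Groups came from the labels. The title and the source description disagreed on injury for 1 library and on genotype for another, and these 2 were left out, which gave 30 libraries. Totals over listed genes were 2262242 to 8606717 counts, with 16 shallow libraries (up to 3595246) and 16 deep ones (from 4648345), and the biological coefficient of variation was 11.6%. Counting error adds to the spread between animals for genes of a few counts. Titles give animal numbers, so each library was taken as 1 animal.

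Counts were normalized by TMM over the 5371 genes passing edgeR's filter on low counts (211 dropped, Il1b and Tnf among them) and tested with edgeR 4.0.16 in R 4.3.3 (quasi-likelihood test, Benjamini-Hochberg adjustment over all tested genes, threshold 0.05). One model held title letter, genotype and injury, and another the 4 groups and title letter for effects within genotypes and the interaction. The SE is the log2 difference divided by the square root of F. Il1b and Tnf were read from a fit of all 5582 genes. CPM is scaled to the listed counts after TMM, log2 CPM used a prior count of 1, and CPM per kb used merged GENCODE exons. Pooled ratios have exact conditional intervals. DESeq2 1.42.0, limma-voom (limma 3.58.1), other scalings, label choices and depth classes, and leaving out each animal were alternatives. The edgeR steps were tested on simulated data.

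The 7 ligands and all gene lists were chosen with earlier results of these data known. Named genes were the 7 ligands, all tested receptors and processing genes, the 4 genes of largest injury difference in each other list, any list gene past the threshold for genotype or interaction, and for each ligand the 2 genes nearest in profile among those with a mean log2 CPM of at least 0. Promoter sequences are from RefSeq, GRCm38.p6.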

Additional observations from a re-analysis of the deposited data

Results flagged for a closer look

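A value that stood apart, by its gap to the next value over the range, was found in 4 of 28 combinations of ligand and group. The cutoff flags about 1 in 20 groups of normally distributed values. All 4 were Il1b or Tnf values from 6 to 31 counts, so that rate cannot be applied to them. Il1b in APOE4 TBI animal E2118 was 9.43 CPM, against 3.55 for the next animal and a group median of 1.30. Il1b in APOE3 TBI animal D1999 was 3.79 CPM, against 2.23 for the next and a median of 1.68. Tnf in E2118 was 2.18 CPM from 6 counts, against 0.746 for the next, and in D1999 it was 2.20 CPM from 18 counts, against 1.12. E2118 also had the highest microglia, monocyte and neutrophil marker sums of the TBI animals, and the part of these markers was not tested. The monocyte and neutrophil sums were on average mostly Vim and Csf3r.

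The 2 libraries with contradictory labels held values above the highest sham. In E2073, titled sham and described as TBI, Il18 was 38.4 CPM against at most 37.0 in shams, and Tgfb1 was 14.6 CPM against at most 11.5. In F1372, titled APOE3 and described as APOE4, Csf1 was 56.4 CPM against at most 55.7.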

How the results depend on the processing

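Over both genotypes every tested ligand was called higher after TBI under each setting run except shallow libraries alone, where 4 of 5 were, and within APOE4 4 of 5 were called under each setting that tested 5. In shallow libraries alone 3 were called in APOE3, and calls were lost for Il1a in APOE3 (0.86, edgeR adjusted p = 0.204), Il18 over both genotypes (0.19, 0.116) and in APOE3 (0.16, 0.407), Il1b over both (1.38, 0.0614), in APOE4 (1.32, 0.215) and in APOE3 (1.47, 0.246), and Tnf in APOE4 (2.13, 0.193) and in APOE3 (4.22, 0.0720). In deep libraries alone calls were lost for Il1b (1.12, 0.0983) and Tnf (3.03, 0.0909) in APOE4. Fewer samples entered these fits, and the cause was not tested.

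Small interaction and genotype values turned in sign, the cause of which was not tested. In shallow libraries the interaction was 1.09 for Il1a and 0.061 for Il18, and the APOE4 minus APOE3 difference was 0.12 for Tnf and 0.083 for Csf1. In deep libraries the interaction was 0.089 for Tnf and -0.18 for Tgfb1, and the genotype difference -0.038 for Il33 and -0.15 for Tgfb1. With groups from titles the Tgfb1 interaction was -0.029 and the Il33 genotype difference -0.014, and with groups from characteristics the Il33 interaction was -0.036 and the genotype differences -0.036 for Il33 and -0.027 for Tgfb1. Genotype differences were -0.00024 for Il33 by limma-voom, -0.0023 for Tgfb1 without the title letter and 0.0052 for Csf1 by DESeq2.

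Leaving out 1 animal at a time moved genotype differences from -0.018 to 0.58 for Il1b, -0.027 to 0.036 for Il33, -0.033 to 0.064 for Tgfb1 and -0.047 to 0.039 for Csf1, and interactions from -0.022 to 0.10 for Il33, -1.21 to 0.23 for Tnf and -0.017 to 0.18 for Tgfb1. It moved the number of ligands called for title letter from 0 to 3, the 3 being Csf1, Tgfb1 and Il1a without D1999. Correlated pairs numbered 9 in all, 2 in APOE4 alone and 4 in APOE3 alone, where n is 8.

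Over all genes, injury calls over both genotypes numbered 5053, and 3241 in shallow libraries; in APOE4 3479, with 1865 in shallow and 1341 in deep libraries; in APOE3 3881, with 1687 in shallow. Genotype calls numbered 108, against 50 by titles, 12 in shallow and 6 in deep libraries. Within TBI they were 24, against 57 by DESeq2, 38 by limma-voom, 11 by titles and 3 in shallow or deep libraries, and within sham 9, against 19 by DESeq2, 5 by titles and 2 in shallow or deep libraries. Title letter calls were 895, against 391 by characteristics, 388 in shallow and 2 in deep libraries. Scaling by total counts put the median of all genes at 0.19, against 0.10 with TMM, with 2787 genes higher and 1185 lower against 2589 and 2464. With a prior count of 5, 8 of the 14 nearest genes were shared. No paired analysis was possible because titles carry animal numbers and no replicate number shared between groups. Few counts limit Tnf and Il1b, and for Il1b in APOE4 so do single animals, whose removal ended the call.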

Other observations

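The 2 libraries that no comparison used had these levels. In E2073, the library titled sham and described as TBI, Il1a was 1.78 CPM, Il1b 0.711, Il33 69.3, Csf1 53.7 and Tnf 0. Its Il33 value lay below all 30 libraries of the comparisons, whose lowest was 84.2 CPM. In F1372, titled APOE3 and described as APOE4, Il1a was 1.61 CPM, Il1b 1.29, Il18 30.3, Il33 108, Tgfb1 6.77 and Tnf 0, all within the range of the sham brains.

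Among the oligodendrocyte markers, Enpp6, an enzyme known from newly formed oligodendrocytes, was higher in APOE4 than in APOE3 brains over both injury states (log2 difference 0.55 ± 0.10, edgeR adjusted p = 0.000813) and within TBI (0.57 ± 0.13, 0.0370), while in sham it was 0.52 ± 0.14 (0.251). It was the one gene of the cell marker lists that passed for genotype.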
